A study of Rattus norvegicus with 18 samples.

Results

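Fads1, Fads2, Elovl2 and Elovl5 encode the desaturases and elongases that build long polyunsaturated fatty acids, and their messenger RNA was followed in rat liver across 6 groups of 3 libraries. They were taken by symbol from a table of FPKM (fragments counted per gene, scaled by gene length and sequencing depth), as 4 of its 33657 genes, and all 4 passed the filter on low values. All libraries are from liver of male rats aged 18 weeks. The orlistat group was obese and received orlistat, a lipase inhibitor used against obesity, as the positive control; the obese control was obese and received water. The plantain groups were obese and ate plantain (low, medium and high dose groups), and the normal control was not obese and received water. The labels name no dose amount, no diet behind the obesity and no strain. They also do not tie the 3 libraries of a group to different animals; the p-values therefore rest on the spread among libraries alone, and that spread may be technical.

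Long polyunsaturated fatty acids such as arachidonic acid and docosahexaenoic acid are made in the liver from the essential fatty acids linoleic and alpha-linolenic acid by alternating desaturation and elongation in the endoplasmic reticulum. Fads2 carries out the first desaturation, Elovl5 lengthens its product, Fads1 introduces the next double bond, and Elovl2 lengthens the products further before a last desaturation by Fads2 and shortening in peroxisomes. The liver genes are textbook targets of the sterol regulatory factor SREBP and of the fatty acid sensor PPARalpha, and polyunsaturated fatty acids in the diet are known to lower Fads1 and Fads2.

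The promoter windows of Fads1, Fads2 and Elovl5 are shown because Fads1 and Fads2 moved together and against Elovl5 between the obese and the normal control. Each window runs from 250 bases before to 50 bases after the annotated start, read 5′ to 3′ on the strand of the gene, from RefSeq on the build GRCr8; all 4 genes had an entry. Capitals mark CCAAT, the core of the NF-Y site, on either strand (ATTGG where it lies on the opposite strand).
Fads1, chr1:216252442-216252741, plus strand: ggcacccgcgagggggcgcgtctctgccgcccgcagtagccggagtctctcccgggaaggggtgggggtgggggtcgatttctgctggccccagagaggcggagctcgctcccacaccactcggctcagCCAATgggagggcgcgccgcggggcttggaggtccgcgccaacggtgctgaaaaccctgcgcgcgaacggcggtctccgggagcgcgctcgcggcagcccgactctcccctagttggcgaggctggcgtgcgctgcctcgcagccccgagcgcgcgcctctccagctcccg
Fads2, chr1:216171984-216172283, minus strand: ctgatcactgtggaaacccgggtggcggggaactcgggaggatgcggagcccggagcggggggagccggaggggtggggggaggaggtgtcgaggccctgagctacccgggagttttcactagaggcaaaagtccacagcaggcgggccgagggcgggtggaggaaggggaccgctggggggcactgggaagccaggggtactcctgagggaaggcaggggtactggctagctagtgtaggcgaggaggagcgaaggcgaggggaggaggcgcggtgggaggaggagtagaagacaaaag
Elovl5, chr8:87670914-87671213, plus strand: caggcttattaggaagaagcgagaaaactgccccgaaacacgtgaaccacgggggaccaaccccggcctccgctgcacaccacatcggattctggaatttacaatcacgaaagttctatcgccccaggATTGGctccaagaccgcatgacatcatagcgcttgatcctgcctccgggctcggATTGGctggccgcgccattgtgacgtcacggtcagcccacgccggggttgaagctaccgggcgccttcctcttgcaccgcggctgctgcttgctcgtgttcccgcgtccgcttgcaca

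The Fads1 window held CCAAT once, 121 bases before the start, and the Elovl5 window held it on the opposite strand 122 and 68 bases before the start. The Fads2 window and both Elovl2 windows in the RefSeq table held no CCAAT, which 37.5% of all 33469 promoter windows of this length contain. An E-box (CANNTG, both strands) was found only in the Elovl5 window, 212 bases before its start, against 72.1% of all windows. A sterol response element (TCACNCCAC), a PPAR-type repeat (AGGTCA repeated with 1 base between) and an LXR-type repeat (the same with 4 bases between) were searched on both strands and matched in none of the 4 genes; 1.12%, 0.0538% and 0.00598% of all windows hold them. These matches describe letters in the window and are not binding sites.

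The recovered reads per library ran from 16.6 to 26.2 M (mega), and the 4 genes were each read 683 to 16330 times in a library. Hepatocyte markers such as albumin and transthyretin summed to between 81740 and 101300 FPKM per library, and none of the 11 markers in the table was at 0. In bulk liver, fewer cells of a type and less RNA per cell cannot be told apart. Differences are log2 of FPKM + 1 with the standard error of a limma fit of all 6 groups, adjusted by the Benjamini-Hochberg method over 11945 genes; the median difference of all genes lay close to 0 in every comparison. The deposited values carry a scale factor per library that differs between groups. Against the obese control, the total of recovered reads in its place moved the median of all genes by 0.07 (orlistat) and 0.06 (high dose). TPM also evens out the sum of FPKM, and its shifts there were larger. Rescaled so that each library sums to the same total (TPM), the median of all genes moved by -0.11 for the obese against the normal control, by 0.15 for orlistat and by 0.15 for the high dose, each against the obese control, by -0.11 for the low dose against orlistat and by 0.12 for the high against the low dose, so values and counts in TPM are given where that scaling changed a call or a member's difference by much.

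Without treatment, the obese control differed from the normal control in 3 of the 4 genes, 1 higher and 2 lower: Fads1 fell to 0.424 and Fads2 to 0.383 of the normal level, and Elovl5 rose 2.13-fold. In that comparison 55.1% of all tested genes passed the adjusted threshold of 0.05 (26.7% higher and 28.4% lower), so the count of members alone is close to the background. The sizes were uncommon, however, since a larger change in either direction was seen in 1.32% of genes for Fads2, 1.90% for Fads1 and 2.62% for Elovl5, against 76.3% for Elovl2. These ranks rest on log2 of FPKM + 1, which shrinks the changes of low genes. The members were also chosen with earlier results of these data known. Across all 6 groups the limma F-test passed for Fads1 (adjusted p = 4.89e-15), Fads2 (4.5e-15) and Elovl5 (2.21e-14) and not for Elovl2 (0.0741), while 72.1% of all genes passed it. The Elovl2 test did pass in TPM (adjusted p = 0.000591), with the total of recovered reads (0.00671) and with voom on those reads (0.00291). It did not pass with quantile normalization, another pseudocount, no filter on low values or the replicate number as a block.

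Fads2 (ENSRNOG00000020440, chromosome 1, 226114413 to 226152524 on the minus strand in the coordinates of the deposited table, whose build is not named) had the highest level per length of the 4 genes in every group except the obese control, where Elovl5 stood higher. In the obese control it stood at 173, 172 and 174 FPKM, against 446, 457 and 454 FPKM in the normal control. The groups were far apart, with a log2 difference of -1.38 ± 0.02 (limma adjusted p = 4.84e-16). With orlistat it had 183, 179.8 and 187 FPKM, all above the obese control libraries, by 0.08 ± 0.02 (adjusted p = 0.00997). Rescaled to TPM that difference was 0.25, also past the threshold, and relative to the median of all genes it was 0.09 as deposited and 0.11 in TPM.

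Over the plantain series Fads2 averaged 173 ± 1.1 FPKM in the obese control, 211 ± 6.2 at the low dose, 251 ± 6.4 at the medium dose and 214 ± 3.9 at the high dose (SD, n = 3 each). The libraries stood at 216, 204 and 213 FPKM at the low dose, 243, 255 and 253.5 at the medium dose and 219, 212 and 212 at the high dose, and all 9 lay above the obese control. The log2 differences from the obese control were 0.28 (adjusted p = 2.34e-07), 0.53 (1.14e-10) and 0.31 (4.6e-08) in order of dose. The medium dose was the highest, with the high dose 0.23 below it (adjusted p = 7.54e-06). As deposited the high dose was not separated from the low dose (difference 0.02, 95% interval -0.03 to 0.07, adjusted p = 0.544). That difference passed in TPM (0.16, adjusted p = 0.00267), with the total of recovered reads (0.09, 0.0312) and with voom on those reads (0.09, 0.0253). The median of all genes itself stood at 0.11, 0.05 and 0.06 in those settings. Relative to that median the Fads2 difference was 0.03 as deposited and 0.05 in TPM. It did not pass with quantile normalization, and as deposited it was -0.0025 without low-dose replicate 2. The equal-step slope of 0.12 per dose step (adjusted p = 5.19e-09; 52.5% of all genes passed the trend test) therefore describes a series that is not monotone. Even at the medium dose Fads2 remained at 0.554 of the normal control level.

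Fads1 (ENSRNOG00000020480, chromosome 1, 226234074 to 226249138, plus strand in the table) had 77.2, 74.6 and 76.4 FPKM in the obese control, against 179, 178 and 181 FPKM in the normal control. Every obese library lay below every normal one, at a mean ratio of 0.424 and a log2 difference of -1.23 ± 0.03 (limma adjusted p = 3.09e-15). With orlistat it stood at 66.8, 65.8 and 66.5 FPKM, below the obese control in all 3 libraries, by -0.19 ± 0.03 (adjusted p = 1.25e-05). Rescaled to TPM that difference was -0.03 (adjusted p = 0.494), and relative to the median of all genes it was -0.19 as deposited and -0.17 in TPM.

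The dose series of Fads1 was shallow. The libraries stood at 81.2, 79.8 and 82.3 FPKM at the low dose, 84.9, 81.8 and 87.4 FPKM at the medium dose and 66.8, 70.5 and 67.4 FPKM at the high dose, with low and medium above the obese control and high below it. The log2 differences from the obese control were 0.09 (adjusted p = 0.0127), 0.15 (0.000191) and -0.16 (0.000119) in order of dose. The low-dose call was lost without obese control replicate 2 (0.08, adjusted p = 0.0583) or without low-dose replicate 3 (0.08, adjusted p = 0.0531). The high-dose difference turned to 0.02 (adjusted p = 0.591) in TPM, where it was -0.13 relative to the median of all genes, against -0.15 as deposited. The slope of -0.04 per step (adjusted p = 0.000657) turned to 0.02 in TPM. The low and the medium dose overlapped (medium minus low 0.06, adjusted p = 0.1), but that difference passed in TPM (0.11, adjusted p = 0.0157), with quantile normalization (0.11, 0.00847), recovered reads (0.11, 0.00999) and voom (0.12, 0.00414), and without medium-dose replicate 2 (0.09, 0.0283). The high dose lay 0.31 below the medium dose (adjusted p = 5.41e-07).

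**Figure D1:**
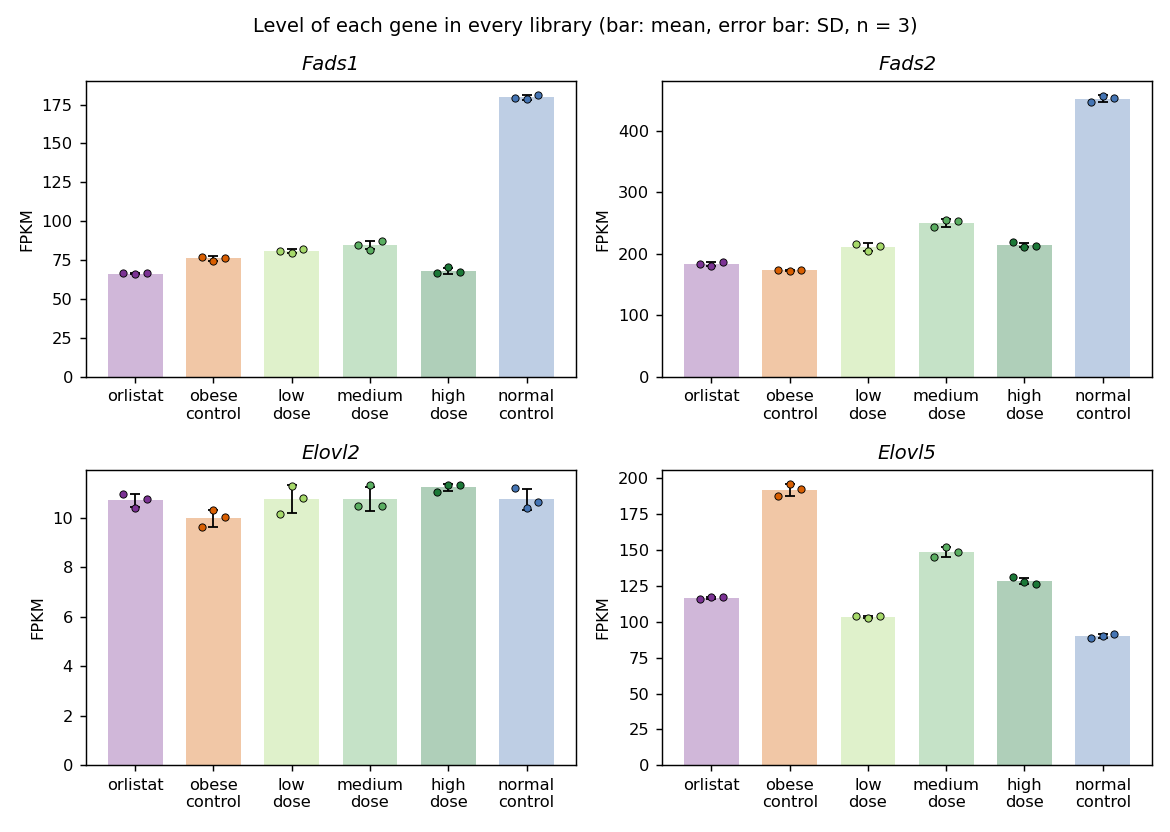
FPKM of the 4 genes in each of the 18 libraries (points), with the group mean (bar) and SD (error bar, n = 3); each panel has its own vertical axis from 0. Fads1 and Fads2 stand far higher in the normal control than in the other 5 groups, Elovl5 is highest in the obese control, and Elovl2 lies between 9.63 and 11.3 FPKM throughout.

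Elovl5 (ENSRNOG00000006331, chromosome 8, 85259982 to 85285983, plus strand in the table) ran the other way. It had 187, 196 and 192 FPKM in the obese control, against 88.9, 89.7 and 91.6 FPKM in the normal control, a log2 difference of 1.08 ± 0.02 (limma adjusted p = 2.24e-15). With orlistat it stood at 116, 117 and 117 FPKM, below every obese control library and above every normal one. The difference from the obese control was -0.71 ± 0.02 (adjusted p = 8.15e-13).

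Every plantain group also had less Elovl5 than the obese control. The libraries stood at 104, 103 and 104 FPKM at the low dose, 145, 152 and 148 FPKM at the medium dose and 131, 128 and 126 FPKM at the high dose. No pair of groups overlapped, a separation that 30.6% to 62.5% of all tested genes showed in a given pair. The log2 differences from the obese control were -0.88 (adjusted p = 2.3e-13), -0.37 (2.48e-09) and -0.57 (1.04e-11) in order of dose. The low dose had the largest effect: its test ranked 7 of 11945 genes by p, and 1.47% of genes changed more in either direction. The medium dose lay 0.52 above the low dose (adjusted p = 1.55e-10), and the high dose lay -0.21 against the medium dose (adjusted p = 6.67e-06), so the series fell, rose and fell again from the obese control upward. The equal-step slope was -0.12 (adjusted p = 1e-09). In order of level, Elovl5 was lowest in the normal control, then low dose, orlistat, high dose, medium dose and obese control, and each neighbouring pair in that order differed (limma adjusted p at most 0.000388).

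Elovl2 (ENSRNOG00000014702, chromosome 17, 21382455 to 21422407, plus strand in the table) had the lowest level per length of the 4. It stood at 9.63, 10.3 and 10.04 FPKM in the obese control, against 11.2, 10.4 and 10.7 FPKM in the normal control, which did not overlap but lay close together. The log2 difference was -0.10 ± 0.04 (95% interval -0.19 to -0.01, adjusted p = 0.0641). It passed the threshold in TPM (-0.22, adjusted p = 0.00184), with the total of recovered reads (-0.14, 0.0152) and with voom on those reads (-0.15, 0.0111), and also without normal control replicate 2 (-0.12, 0.0492) or low-dose replicate 1 (-0.10, 0.0489). It did not pass with quantile normalization. Relative to the median of all genes it was -0.10 as deposited and -0.11 in TPM.

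With orlistat Elovl2 had 10.96, 10.4 and 10.8 FPKM, a difference of 0.09 from the obese control (adjusted p = 0.0811; 0.26 and past the threshold in TPM, adjusted p = 0.000503). Over the series it averaged 9.99 ± 0.34 FPKM in the obese control, 10.8 ± 0.57 at the low dose, 10.8 ± 0.48 at the medium dose and 11.2 ± 0.14 at the high dose. The low dose (0.10, adjusted p = 0.0945) and the medium dose (0.10, 0.0793) did not pass, and the high dose did (0.16, 0.00616; 0.33 in TPM). In TPM the low and medium doses passed as well (0.14, adjusted p = 0.0462, and 0.19, 0.00697), as did the high against the low dose (0.19, adjusted p = 0.00748, against 0.06 as deposited). Relative to the median of all genes, orlistat and the low, medium and high dose gave 0.10, 0.09, 0.10 and 0.16 as deposited. In TPM these relative values were 0.12, 0.09, 0.11 and 0.18. For the high against the low dose they were 0.07 as deposited and 0.08 in TPM. With quantile normalization none of these calls changed. The high against the low dose also passed with the total of recovered reads (0.13, adjusted p = 0.0432) and with voom on those reads (0.14, 0.0331). The low-dose value passed without low-dose replicate 1 (0.13, adjusted p = 0.0344). As deposited, no neighbouring pair in the order of Elovl2 levels passed the test. The equal-step slope was 0.05 per dose step (limma adjusted p = 0.00843, and 0.10 in TPM), where 52.5% of all genes passed the trend test.

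**Figure D2:**
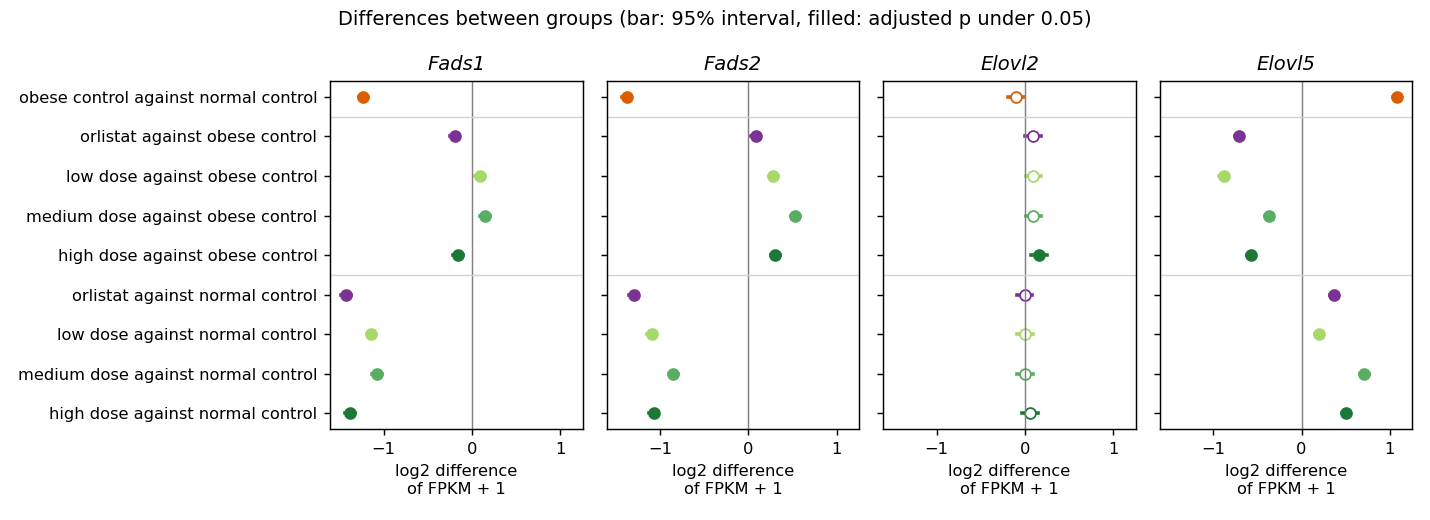
Log2 differences of FPKM + 1 for the 4 genes (points) with 95% intervals from the limma fit (bars), for the obese control against the normal control and each treated group against the obese and the normal control; filled points passed the adjusted threshold. Fads1 and Fads2 are far below 0 in every comparison with the normal control, from -0.85 to -1.42, while Elovl5 is above 0 in all of them.

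Of the 4 genes, 3 passed with orlistat against the obese control, 1 higher and 2 lower, beside 51.8% of all genes (26.2% higher, 25.6% lower). At the low dose 3 passed, 2 higher and 1 lower, beside 33.0% of all genes (18.3% and 14.8%). At the medium dose 3 passed, 2 higher and 1 lower, beside 41.9% (21.8% and 20.1%), and at the high dose 4 passed, 2 in each direction, beside 51.9% (26.6% and 25.3%). In TPM the higher and lower members numbered 2 and 1 with orlistat, 3 and 1 at the low dose, 3 and 1 at the medium dose and 2 and 1 at the high dose. Of all 11945 genes in TPM, 4989 were higher and 1566 lower with orlistat. The counts were 2675 and 1302, 3748 and 1440, and 5176 and 1476 at the low, medium and high dose. As deposited, 58.2% of all tested genes had no overlap between orlistat and the obese control. At the low, medium and high dose 44.8%, 49.2% and 57.8% had none. These comparisons share the obese control libraries. The gene that moved most in each was Elovl5 with orlistat and at the low and high doses, where 5.28%, 1.47% and 9.87% of genes changed more. At the medium dose it was Fads2, with 7.71% of genes changing more, against 16.2% for Elovl5. As deposited, the Fads1 and Fads2 differences with orlistat were exceeded by 51.7% and 77.5% of genes.

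No treated group reached the normal control level of Fads1 or Fads2. Against the normal control, Fads1 differed by -1.42 with orlistat and by -1.14, -1.08 and -1.38 at the low, medium and high dose, and Fads2 by -1.30, -1.10, -0.85 and -1.08 in the same order (limma adjusted p at most 2.29e-13). Elovl5 stayed above the normal control by 0.37 with orlistat and by 0.20, 0.71 and 0.51 at the 3 doses (limma adjusted p between 5.21e-13 and 2.16e-06). Elovl2 differed by at most 0.06 in these 4 comparisons and passed in none (adjusted p at least 0.291). In each of the 4, 3 of the 4 genes passed, beside 44.1% of all genes for orlistat, 47.8% for the low dose, 45.3% for the medium dose and 42.4% for the high dose.

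Plantain and orlistat differed in these genes as well. Against orlistat, Fads1 was higher at the low (0.29, adjusted p = 4.68e-07) and medium dose (0.35, 7.2e-08), and Fads2 was higher at all 3 doses (0.20, 0.45 and 0.22; the first was 0.08 with an adjusted p of 0.112 in TPM). At the high dose Fads1 was 0.04 above orlistat (95% interval -0.02 to 0.09, adjusted p = 0.364). Elovl5 was below orlistat at the low dose (-0.17, adjusted p = 1.77e-05) and above it at the medium (0.35, 1.22e-08) and high dose (0.14, 0.000388). These counts are 3, 3 and 2 of the 4 genes in order of dose, where 36.8%, 26.9% and 15.1% of all genes passed. Between doses, 2 of 4 passed for medium against low (23.0% of all genes), 3 for high against medium (20.3%) and 2 for high against low (32.7%). In TPM these were 3, 3 and 4 of 4, with Fads1 added for medium against low (0.11) and Fads2 (0.16) and Elovl2 (0.19) for high against low. Of all 11945 genes in TPM, 1807 were then higher and 953 lower for medium against low. The counts were 2587 and 634 for high against medium, and 4003 and 826 for high against low.

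Ratios taken within a library do not depend on its scale factor. Fads2 over Fads1 was 2.24 to 2.31 in the obese control, against 2.49 to 2.56 in the normal control. It was 2.73 to 2.81 with orlistat, and over the series it had means of 2.28 in the obese control, 2.60 at the low dose, 2.96 at the medium dose and 3.14 at the high dose. The high-dose libraries (3.00 to 3.27) overlapped the medium-dose ones (2.87 to 3.12). The log2 ratio differed by -0.15 between the obese and the normal control, and from the obese control by 0.28 with orlistat and by 0.19, 0.38 and 0.46 at the 3 doses.

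Elovl5 over Elovl2 was 19.2 ± 0.25 in the obese control, against 8.38 ± 0.40 in the normal control (mean ± SD, n = 3), a log2 difference of 1.20. It was 10.5 to 11.2 with orlistat, 9.08 to 10.2 at the low dose, 13.4 to 14.2 at the medium dose and 11.2 to 11.8 at the high dose, all below the obese control. None of the 10 ratio comparisons with their control overlapped. Each gave an exact two-sided permutation p of 0.1, the smallest that 3 against 3 libraries allow, so none can pass 0.05.

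**Figure D3:**
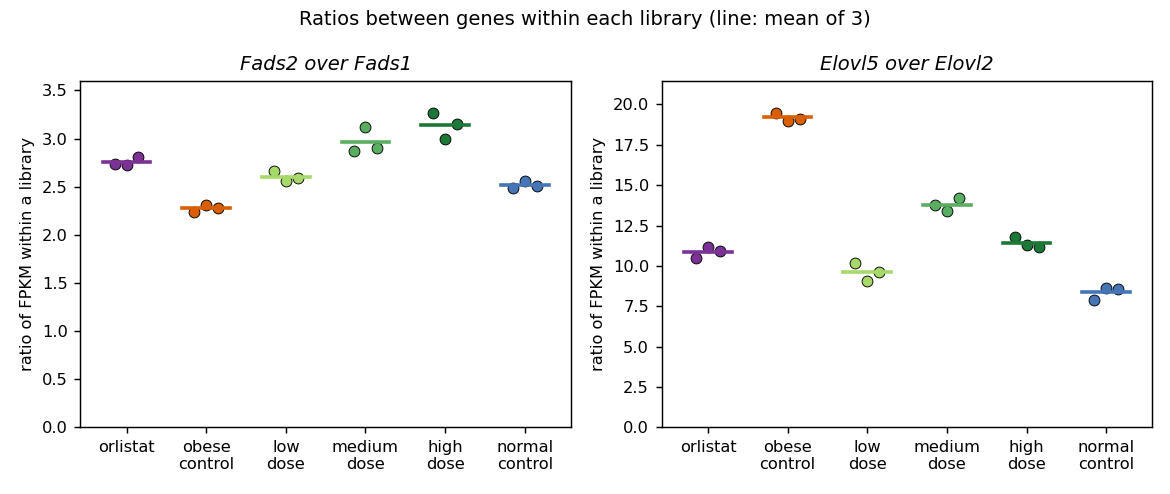
Ratio of FPKM of Fads2 to Fads1 and of Elovl5 to Elovl2 within each library (points), with the group mean (line), on linear axes from 0. The Fads2 to Fads1 ratio is lowest in the obese control (mean 2.28) and highest at the high dose (3.14), and the Elovl5 to Elovl2 ratio is highest in the obese control (19.2).

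Fads1 and Fads2 lie side by side on chromosome 1 on opposite strands, with 81549 bases and no other gene of the table between them. Their patterns were alike: the root mean square difference between their 6 centred group means was 0.151 on the log2 scale. Of the genes searched, 0.0688% were nearer to Fads1 than Fads2 was, with Fads1 itself counted. In reverse, 0.138% were nearer to Fads2 than Fads1 was, with Fads2 itself counted. Against the obese control, as deposited, Fads1 and Fads2 moved in opposite directions with orlistat (-0.19 and 0.08) and at the high dose (-0.155 and 0.31). The distance from Elovl5 was 0.736 for Fads1 and 0.733 for Fads2. Of 8 other genes listed near them and present in the table, 4 were tested. Against the normal control 2 of these were higher and 0 lower in the obese control, beside 26.7% and 28.4% of all genes. Fads3, a related desaturase, averaged 1.68 ± 0.16 FPKM in the obese control, against 1.33 ± 0.29 in the normal control (log2 difference 0.21, adjusted p = 0.105). Myrf, a membrane-bound transcription factor, was higher in the obese control (5.23 ± 0.28 FPKM) than in the normal control (3.76 ± 0.29 FPKM; 0.39, adjusted p = 1.91e-05), as was Fen1, a DNA repair nuclease (0.29, 0.00718). The strand setting of the counting and its treatment of reads shared by the related Fads genes are not stated in the labels or the file.

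The genes most like each member over the 6 group means were found among all tested genes with a symbol. For Fads1 they were Pfkfb1 (distance 0.102), which encodes a liver enzyme that controls glycolysis, Gpi (0.134), a glycolytic isomerase, and Trak1 (0.137), a trafficking adaptor. Pfkfb1 averaged 22.4 ± 0.72 FPKM in the obese control, against 58.0 ± 0.41 FPKM in the normal control. For Fads2 the nearest was Bhlhe40 (0.0709), a circadian repressor, with 13.0 ± 0.59 FPKM in the obese control, against 40.8 ± 1.3 FPKM in the normal control, followed by Gprin3 (0.115) and Zfp1 (0.12). For Elovl5 they were Ten1 (0.0907), Alas2 (0.112), the haem synthesis enzyme of red blood cells, and Sod3 (0.125), an extracellular superoxide dismutase. For Elovl2, whose own spread over the groups was only 0.0456, they were Gtf3c5 (0.0112), the lipid droplet gene Cidec (0.0127) and Vps8 (0.018), which is a likeness of nearly flat patterns.

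The counts in this and the later lists stand beside the shares of all genes that passed as deposited. Those were 26.7% higher and 28.4% lower in the obese against the normal control. Against the obese control they were 26.2% and 25.6% with orlistat and 18.3% and 14.8% at the low dose. The medium dose had 21.8% and 20.1%, and the high dose 26.6% and 25.3%. Among the other acyl desaturases and elongases, 6 of 12 were tested. In the obese control 1 was higher and 3 were lower than in the normal control; against the obese control 3 were higher and 2 lower with orlistat, 3 and 1 at the low dose, 4 and 0 at the medium dose, and 4 and 1 at the high dose. In TPM the counts were 0 higher and 3 lower for the obese against the normal control and 4 and 1 with orlistat, and unchanged at the doses. Fads6, a member of the Fads family, averaged 54.1 ± 1.3 FPKM in the obese control, against 66.6 ± 1.2 in the normal control (-0.30, adjusted p = 1.41e-06), and was higher than the obese control in all treated groups (0.76 with orlistat, then 0.58, 0.59 and 0.80 by dose). Scd, which makes monounsaturated fatty acids, fell to 244 FPKM in the obese control, against 619 FPKM in the normal control. Relative to the obese control it fell further with orlistat (-1.53), the low dose (-1.15) and the high dose (-0.52) and rose at the medium dose (0.16). It thus shared with Fads2 its lower level in the obese control, while Fads2 was above the obese control in those same 3 groups. Scd2 showed no detectable difference between the obese and the normal control (-0.00, adjusted p = 0.993) and was higher in each treated group, from 0.31 to 0.51. Elovl6, which lengthens saturated chains, was listed at 0 in 15 of 18 libraries and did not pass the filter; Fth1, a ferritin gene that most cells use, was listed at 0 in all 18, so a listed 0 need not mean absence.

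Partners of the elongation cycle and of electron supply showed 3 genes higher and 4 lower of 9 tested in the obese control against the normal control. Cyb5b and Cyb5r3, a cytochrome b5 and the reductase that feeds electrons to desaturases, fell in the obese control (-0.58, adjusted p = 3.73e-09, and -0.59, 4.1e-11). Relative to the obese control, Cyb5b rose under orlistat (0.24) and at the 3 doses (0.18, 0.35 and 0.13), the largest at the medium dose as for Fads2. Cyb5r3 rose with orlistat (0.21), and at the doses its differences were 0.07, 0.03 and -0.07, which passed at 0.11, 0.12 and 0.11 in TPM. Hacd3, a dehydratase of the cycle, was higher in the obese control (0.29) and rose by 0.08 to 0.20 in the treated groups. Against the obese control the list gave 4 higher and 2 lower with orlistat, 4 and 2 at the low dose, 4 and 1 at the medium dose and 3 and 2 at the high dose. In TPM it gave 5 higher and 1 lower in each of the 4, and 3 and 5 in the obese against the normal control.

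Peroxisomal shortening, which makes the last step to docosahexaenoic acid, had 1 gene higher and 4 lower of 8 tested in the obese control against the normal control, with a median of -0.15. Against the obese control 6 were higher and 1 lower with orlistat, 5 and 1 at the low dose, 6 and 1 at the medium dose and 5 and 1 at the high dose, with medians of 0.21 to 0.25 while the median of all genes lay within 0.01 of 0. In TPM the counts were 1 and 6 in the obese against the normal control, 6 and 1 with orlistat and 5 and 1, 6 and 0, and 7 and 0 at the doses. Ehhadh, the bifunctional enzyme of the pathway, averaged 110.0 ± 2.2 FPKM in the obese control, against 202 ± 1.9 FPKM in the normal control, and rose by 0.73 with orlistat and by 0.75, 0.66 and 0.61 at the doses. Scp2, a thiolase and sterol carrier, moved opposite, with 0.40 in the obese control and -0.22, -0.12, -0.09 and -0.21 in the treated groups; its medium- and high-dose calls were lost in TPM (0.01 and -0.03), and with quantile normalization its orlistat call was lost (0.01) and its medium-dose value turned to 0.06.

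Of 4 acyl-CoA synthetases tested, which activate fatty acids, 0 were higher and 3 lower in the obese control against the normal control. Acsl1, the main liver form, had 518 ± 3.4 FPKM in the obese control, against 626 ± 1.1 in the normal control, and rose by 0.24 to 0.30 in all treated groups. Acsl4, which prefers arachidonic acid, was lower than the obese control at the medium dose (-0.28, adjusted p = 3.04e-07) and at the high dose (-0.17; not past the threshold at 0.01 in TPM and at -0.05 with quantile normalization). Acsl5 was lower in the obese control than in the normal control (-0.29, adjusted p = 9.3e-07). With orlistat 1 gene of the list was higher and 0 lower; the counts were 1 and 0 at the low dose, 2 and 1 at the medium dose and 1 and 2 at the high dose. In TPM they were 3 and 0 with orlistat, where Acsl4 (0.22) and Acsl5 (0.19) passed, and 2 and 0 at the high dose, where Acsl5 passed (0.18) and no gene was lower.

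Genes that place polyunsaturated chains in phospholipids or release them showed 3 higher and 3 lower of 8 tested in the obese control against the normal control. Agpat3, an acyltransferase of phosphatidic acid synthesis, was higher in the obese control (13.3 ± 0.07 FPKM) than in the normal control (5.57 ± 0.27 FPKM), by 1.12, and fell relative to the obese control in all treated groups (-0.52 with orlistat, then -0.22, -0.35 and -0.38), as Elovl5 did. Pla2g12a, a secreted phospholipase, had 19.7 ± 1.1 FPKM in the obese control, against 6.77 ± 0.32 FPKM in the normal control (1.41, adjusted p = 6.58e-12). Mfsd2a, a transporter of docosahexaenoic acid in lysophospholipid form, fell most at the medium dose, to 59.8 ± 1.3 FPKM, against 102 ± 2.8 FPKM in the obese control (-0.77, adjusted p = 6.02e-13). The list gave 3 higher and 2 lower with orlistat, 4 and 2 at the low dose, 3 and 2 at the medium dose and 3 and 2 at the high dose. In TPM it gave 4 and 1 with orlistat and 4 and 1, 4 and 2, and 4 and 1 at the doses, and 2 and 3 in the obese against the normal control.

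Oxidation to signalling lipids held 3 genes higher and 4 lower of 10 tested in the obese control against the normal control. Ephx2, the soluble epoxide hydrolase that breaks down fatty acid epoxides, averaged 57.7 ± 2.8 FPKM in the obese control, against 23.0 ± 0.63 FPKM in the normal control (1.29, adjusted p = 3.17e-13). Relative to the obese control it fell under orlistat (-0.62) and at the doses (-0.51, -0.29 and -0.61). Ephx1, the microsomal hydrolase, fell most with orlistat, to 291 ± 3.6 FPKM, against 485 ± 1.0 FPKM in the obese control (-0.74). Cyp2c23, an arachidonic acid epoxygenase of the rat, was lower in the obese control than in the normal control (-0.37) and above the obese control under orlistat (0.26) and at the low (0.25) and high dose (0.13). At the medium dose it was lower than the obese control (-0.06, adjusted p = 0.00702), a call lost in TPM (0.04) and with quantile normalization (-0.05). The list gave 3 higher and 3 lower with orlistat, 4 and 2 at the low dose, 3 and 4 at the medium dose and 4 and 4 at the high dose. In TPM it gave 5 and 2 with orlistat, 4 and 2, 3 and 3, and 5 and 1 at the doses, and 3 and 5 in the obese against the normal control; Ephx1 at the high dose was -0.07 as deposited and 0.11 in TPM (adjusted p = 0.00115 and 0.000337).

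Of 15 transcription factors and sensors tested, 5 were higher and 5 lower in the obese control against the normal control (3 and 6 in TPM). Insig2, which holds SREBP in the endoplasmic reticulum, had 206 ± 4.0 FPKM in the obese control, against 52.2 ± 1.3 FPKM in the normal control (1.96, adjusted p = 1.47e-16), and fell, relative to the obese control, by 1.14 under orlistat and by 0.73, 1.21 and 1.20 at the doses. Insig1, its SREBP-responsive relative, went the other way in the obese control (-0.80), and relative to the obese control it was higher with orlistat (0.67) and lower at the medium (-1.09) and high dose (-0.36). At the medium dose, where Fads2 was at its highest plantain value, Insig1 was at its lowest, with 31.7 ± 1.8 FPKM, against 68.6 ± 1.1 FPKM in the obese control. Rxra, the partner receptor of PPARalpha and LXR, fell to 82.9 ± 0.28 FPKM in the obese control, against 135 ± 2.9 FPKM in the normal control, and rose in all treated groups by 0.40 to 0.77. The list gave 6 higher and 2 lower with orlistat (10 and 1 in TPM), 3 and 2 at the low dose (3 and 1 in TPM), 4 and 5 at the medium dose (6 and 3 in TPM) and 7 and 5 at the high dose (9 and 2 in TPM).

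**Figure D4:**
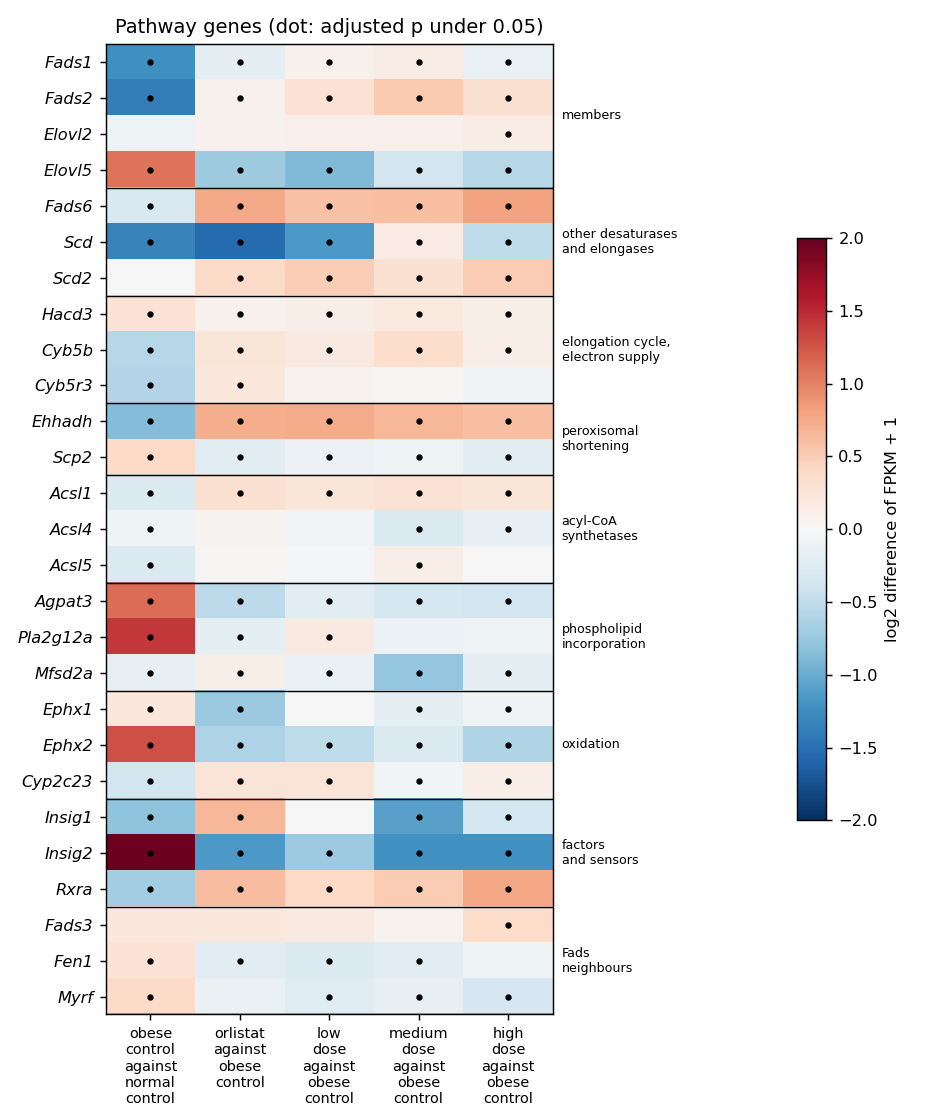
Log2 differences of FPKM + 1 for the 4 genes and the named pathway genes (rows, grouped by list) in 5 comparisons (columns), on a colour scale from -2 (blue) to 2 (red); dots mark an adjusted p under 0.05. Fads1, Fads2, Scd, Ehhadh, Insig1 and Rxra are blue and Elovl5, Agpat3, Pla2g12a, Ephx2 and Insig2 are red in the column of the obese against the normal control.

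Markers of other liver cells also moved between these groups. Of all genes, 26.7% were higher and 28.4% lower in the obese against the normal control. In the treated groups against the obese control, 33.0% to 51.9% of all genes passed. Kupffer cell and macrophage markers, all 10 of which were tested, were higher in 10 and lower in 0 in the obese control against the normal control, with sums of 306.5 to 316.9 FPKM in the obese control, against 182.2 to 183.7 FPKM in the normal control. Against the obese control 2 were higher and 1 lower with orlistat (319.8 to 339.9 FPKM), 9 were higher at the low dose (389.0 to 400.8 FPKM), and 9 were lower at the medium (253.9 to 261.2 FPKM) and at the high dose (258.6 to 262.5 FPKM); in TPM 6 were higher and 0 lower with orlistat, 9 were higher at the low dose, 7 were lower at the medium dose, and 5 were lower and 1 higher at the high dose. Endothelial markers summed to 109.1 to 113.3 FPKM with orlistat, 105.0 to 134.8 FPKM in the plantain groups, 73.4 to 77.1 FPKM in the obese control, against 53.7 to 56.2 FPKM in the normal control. Stellate cell markers summed to between 48.7 and 68.8 FPKM over all libraries. They stood at 62.3 to 63.2 FPKM in the obese control, against 48.7 to 51.8 FPKM in the normal control, and were highest with orlistat. Fat cell markers summed to between 12.5 and 34.9 FPKM, with leptin at 0 in all libraries. They stood at 23.5 to 24.2 FPKM in the obese control, against 12.5 to 14.6 FPKM in the normal control. Their highest sums were at the low dose (33.8 to 34.9 FPKM). Bile duct markers summed to between 7.43 and 9.99 FPKM and lymphocyte markers to between 3.52 and 6.42 FPKM. Red blood cell markers, which include Alas2, summed to 1364 to 1654 FPKM in the obese control, against 848.4 to 895.6 FPKM in the normal control. Mitochondrial transcripts took 7.86% to 8.38% of reads in the obese control, against 6.20% to 6.65% in the normal control. Hepatocyte marker sums were 99040 to 101300 FPKM in the obese control, against 87130 to 92580 FPKM in the normal control. All genes together also summed higher there, to a mean of 604900 FPKM against 555000 FPKM. Of 11 hepatocyte markers tested, 6 were higher and 4 lower in the obese control. In TPM albumin turned from 0.06 to -0.06, and Tf lost its higher call (0.12 as deposited, -0.002 in TPM). The part of these marker shifts in the differences of the 4 genes was not tested.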

How the data were processed

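Liver RNA of 18 rat libraries in 6 groups was measured by RNA sequencing on an Illumina instrument, per the labels. The authors deposited 1 table of FPKM with gene length, coordinates and symbol; per the submitters' processing notes the tools were CASAVA 1.7 and Bowtie 0.12.2 and the build mm8, which is of the mouse, while 32883 genes have identifiers of the rat. The build and annotation of the rat table were not given in the sources used here; its positions were not mixed with those of GRCr8.

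The deposited FPKM times gene length were whole multiples of 1 step in 100% of values (tolerance 0.001, whole reads recovered), which gave 16.6 to 26.2 M (mega) reads per library. Summed over genes, no pair of replicates agreed within counting noise (chi-square per degree of freedom 3.15 to 6.87). The median gene had a chi-square of 0.675 to 1.15, above the median that counting noise alone gives for 1 degree of freedom. The typical gene thus also varied more than counting noise, though the excess was not shared evenly by all genes. Among the 4 genes the spread of replicates lay below the counting error in some groups (Fads2 in the normal control, 0.279% against 0.791%) and above it in others (Fads1 there, 1.47% against 0.792%). Groups were read from the labels. log2(FPKM + 1) was kept for genes reaching 1 FPKM in 3 or more libraries (11945 genes) and fitted with limma 3.58.1 (R 4.3.3; 1 fit of 6 groups, mean-variance trend, no covariate, two-sided, Benjamini-Hochberg, threshold 0.05) for 15 pairs of groups, an equal-step dose trend and an F-test. The script was tested on simulated data. Ratios were compared by exact permutation (SciPy 1.17.1). A fold on this scale understates the change of low genes.

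The members, pathway lists and marker lists were chosen with earlier results of these data known. Named genes were the 4 members, up to 3 genes per pathway list by smallest F-test p, and the 3 most alike genes per member. Acaa1b, Decr2, Eci2, Cyp2j3, Mlxipl, Tmem258, Ahsg, Pecam1 and Cd79a were not analysed here. Of the genes the rule names, 1 is not reported here. Alternatives were the pseudocount, the filter, TPM, quantile normalization, scaling by recovered reads, voom, the 2 groups alone, a replicate block and leaving out each library.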

Additional observations from a re-analysis of the deposited data

How the results depend on the processing

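All 127 alternative values and all 288 values with 1 library left out kept direction and call for Elovl5, as did those of Fads2 in the obese control against the normal control and in the 4 treatments against the obese control. Same-numbered libraries did not deviate together (correlations -0.092 to 0.066 over 45 pairs, and 4 of 18 libraries were best matched to their own number). Such weak correlations cannot decide whether the numbers pair samples, and the labels do not say. With the replicate number as a block 6529 genes passed for obese against normal control (6578 without) and no call of a member in the named comparisons changed.

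Rescaled to TPM, Elovl2 gave -0.22 for obese against normal control, 0.26 for orlistat, 0.14 for the low dose and 0.19 for the medium dose, each against the obese control and now past the threshold, and turned to 0.0387 for orlistat against normal control, -0.12 for low dose and -0.0669 for medium dose against orlistat. Relative to the median of all genes in TPM, those past the threshold were -0.11, 0.12, 0.09 and 0.11. Against the obese control Fads1 gave -0.0268 with orlistat and 0.0215 at the high dose, and its dose trend was 0.0178. The TPM split of higher and lower genes was 1973 and 4569 (3191 and 3387 as deposited) for obese against normal control, 4989 and 1566 (3133 and 3055) for orlistat, 2675 and 1302 (2183 and 1764) for the low, 3748 and 1440 (2599 and 2404) for the medium and 5176 and 1476 (3181 and 3018) for the high dose. With quantile normalization Elovl2 turned to 0.0389, 0.0321 and 0.0393 for orlistat, low and medium dose against normal control and to -0.0068 for low dose against orlistat. Scaled by recovered reads it gave -0.14 for obese against normal control, 0.17 and 0.15 for orlistat and medium dose against the obese control, 0.0318 and 0.0079 for them against normal control, and -0.0731 and -0.0239 for low and medium dose against orlistat. With voom these were -0.15, 0.19, 0.16, 0.0376, 0.0066, -0.0854 and -0.0311. By voom 6756 genes passed for obese against normal control, 6232 with orlistat and 3997, 5097 and 6130 at the low, medium and high dose against the obese control (6578, 6188, 3947, 5003 and 6199 as deposited). The Elovl2 F was 9.774, 5.736 and 6.071 under TPM, recovered reads and voom, past the threshold in each, against 2.806. In the other alternatives that used all libraries the Elovl2 F-test did not pass. The Fads1 dose trend also missed the threshold with quantile normalization (-0.0131), recovered reads (-0.012) and voom (-0.0113). The causes were not tested.

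With 1 library left out, Elovl2 ran from -0.0339 to 0.0358 (low dose against normal control), 0.0629 to 0.1326 (low dose against obese control), -0.029 to 0.0407 (low dose against orlistat), -0.0358 to 0.0339 (medium against low), -0.0338 to 0.0283 (medium dose against normal control), -0.029 to 0.0225 (medium dose against orlistat), -0.1188 to -0.0685 (obese against normal control) and -0.0269 to 0.0235 (orlistat against normal control). Fads1 ran from 0.0768 to 0.1022 for the low dose against the obese control, and Fads2 from -0.0025 to 0.0384 for high against low. The Elovl2 F reached 3.559 (adjusted p = 0.0408) without low-dose replicate 1. Genes called for high against medium dose numbered 2430, and 1348 with only those 2 groups.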
